A study of Mus musculus with 7 samples.

Results

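The crosslinks described here are positions, listed as predominant, at which Argonaute was linked to RNA in neonatal mouse retina next to a miR-30 family seed match. A position was taken where it lay in an exon and the spliced transcript held TGTTTAC, the match to bases 2 to 8 of miR-30, wholly within 20 nt on either side of it. This gave 264 positions in 242 genes. They were 2.41% (exact 95% interval 2.13 to 2.72) of the 10949 exonic positions with a full window, and 5.57% of the 4341 genes with an exonic position held one. The table lists 14054 positions in all, 10992 of them exonic, and 43 exonic positions had no full window; 1 of these, in Rab4b, also lay beside a match and is not counted.

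The data come from PAR-CLIP, in which cells build 4-thiouridine into their RNA in place of some of the uridine and ultraviolet light links it to the protein it touches. Explants of retina from CD-1 mice (postnatal day 0) were kept in culture for 24 h with 0.1 mM 4-thiouridine and 20% horse serum, and were irradiated at 365 nm with about 300 mJ/cm2. The 5 Argonaute libraries were made with antibody 2A8, and the 2 control libraries with IgG, each from 6 pooled retinas; complexes of 100 to 150 kDa and cDNA of 80 to 150 nt were kept. The deposited table pools the Argonaute libraries and gives, for each position, how many of the 5 held it, from 2 to 5. It lists crosslinks named as predominant, and how these were chosen was not examined, so other linked bases may be unlisted. Values of single libraries and of IgG were not analysed here, so no difference below is set against replicate spread. Read depth is unknown and abundant RNAs are favoured. Positions and genes are not independent replicates, and intervals and p-values cover counting error only. Of 20 marker genes of retinal cells, 14 had an exonic crosslink, against 2 of 27 markers of other ocular cells (Kdr of endothelium and Pdgfra of astrocytes). Both are chosen lists, and the share over all annotated genes was not taken. Rorb was the only one of these markers with a miR-30 crosslink. That was 7.14% of the 14 retinal markers, against 5.57% of all genes with an exonic crosslink. By crosslinks it was 1 of 133 (0.752%), against 2.41% of all exonic positions with a full window. The markers of other ocular cells had 0 of 6.

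MicroRNAs guide Argonaute to messenger RNAs chiefly through the seed, the stretch near their 5′ end that pairs with a complementary match, usually in the 3′ UTR. Argonaute then recruits TNRC6 proteins, which bring deadenylases and lower translation and stability of the message. An adenosine in the target opposite microRNA base 1 is held in a pocket of Argonaute and makes an 8mer of the 7mer match. The miR-30 family is broadly expressed in vertebrates and is known for targets among transcription factors, chromatin regulators, ubiquitin ligases and enzymes of mucin-type glycosylation.

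Mature members of the family are printed first because the rule rests on their seed. The sequences are those of RefSeq on GRCm38.p6, with the seed, bases 2 to 8, in capitals. miR-384-5p, which is not named as a miR-30, carries the same seed, so a match cannot be assigned to 1 of these microRNAs. miR-30b-5p and miR-30d-5p are further members of the family.
miR-30a-5p (chr1:23272274-23272295, plus strand): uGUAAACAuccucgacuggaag
miR-30c-5p (chr4:120769584-120769606, minus strand): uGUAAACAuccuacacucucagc
miR-30e-5p (chr4:120772660-120772681, minus strand): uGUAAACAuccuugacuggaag
miR-384-5p (chrX:105344332-105344354, minus strand): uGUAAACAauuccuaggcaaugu

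Of the 15 miR-30 crosslinks held by 5 of 5 libraries, 14 are shown next, since they are the most often recovered positions and show where the linked base lies. Each stretch is on the transcribed strand, 5′ to 3′, in mm10 coordinates, with the seed match in capitals. In 11 of the 14, and in 11 of all 15, the linked base is the t directly before the match. The position not printed, in Klhl28, is linked within its match.
1700020I14Rik (chr2:119604562-119604589, plus strand): ctgtagtctctTGTTTACtctatgtacc
Ap1s2 (chrX:163928389-163928416, plus strand): acaatcacaaaTGTTTACcaaagaaaat
Fndc3a (chr14:72538448-72538475, minus strand): aatatactgttTGTTTACattttattta
Gm49336 (chr14:60225292-60225319, minus strand): gtgacttgaatTGTTTACatagcttcta
Gskip (chr12:105701608-105701635, plus strand): ctctgaatgttTGTTTACaatgtacagt
Jak1 (chr4:101152388-101152415, minus strand): tatatgcacttTGTTTACtctttataca
Mgea5 (chr19:45751514-45751541, minus strand): cgactgttcttTGTTTACtgttttatat
Morc3 (chr16:93875532-93875559, plus strand): agtgacaaccaTGTTTACtttgaagccc
Ncam1 (chr9:49504439-49504466, minus strand): caaaagatgatTGTTTACagtggctcta
Papola (chr12:105838649-105838676, plus strand): tcttgtcgtttTGTTTACacattgggga
Rnf6 (chr5:146209546-146209573, minus strand): aagatagagatTGTTTACtgaagcgtgt
Rorb (chr19:18977627-18977654, minus strand): tgtacccaactTGTTTACctatagctct
Sh3rf1 (chr8:61394121-61394148, plus strand): aaatggacaatTGTTTACaaggcttaac
Srsf7 (chr17:80201496-80201523, minus strand): aaaagttatttTGTTTACattattataa

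At 12 of the 15 positions the site lay in a 3′ UTR. Rorb, a nuclear receptor needed for retinal cell fate, was linked in coding exon 4 of 10, and 1700020I14Rik and Gm49336 in exons annotated as noncoding. Morc3, a chromatin-binding ATPase, was linked at the first base of the match. The linked base lay away from the start of the match in Ap1s2, Klhl28 and Jak1: the match began 4 nt before it in Ap1s2, 3 nt before it in Klhl28 and 7 nt after it in Jak1.

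Crosslinks were concentrated at the 5′ edge of the match. Of the 264 positions, 108 (40.9%, 34.9 to 47.1) had a match that began 1 nt after the linked base and 70 (26.5%, 21.3 to 32.3) were linked at the first T of the match itself. A start 2 nt after the linked base was found 9 times and 3 nt after it 5 times, so that 192 positions (72.7%) had a match starting 0 to 3 nt downstream. The remaining 72 were spread thinly over the window: no other start held more than 7 positions. At the edges of the window, 2 positions had a match starting 20 nt before the linked base, 2 had one 19 nt before, 4 had one 13 nt after and 1 had one 14 nt after. Just outside it, 2 began 22 nt before, 4 began 21 nt before, 0 began 15 nt after and 2 began 16 nt after.

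**Figure D1:**
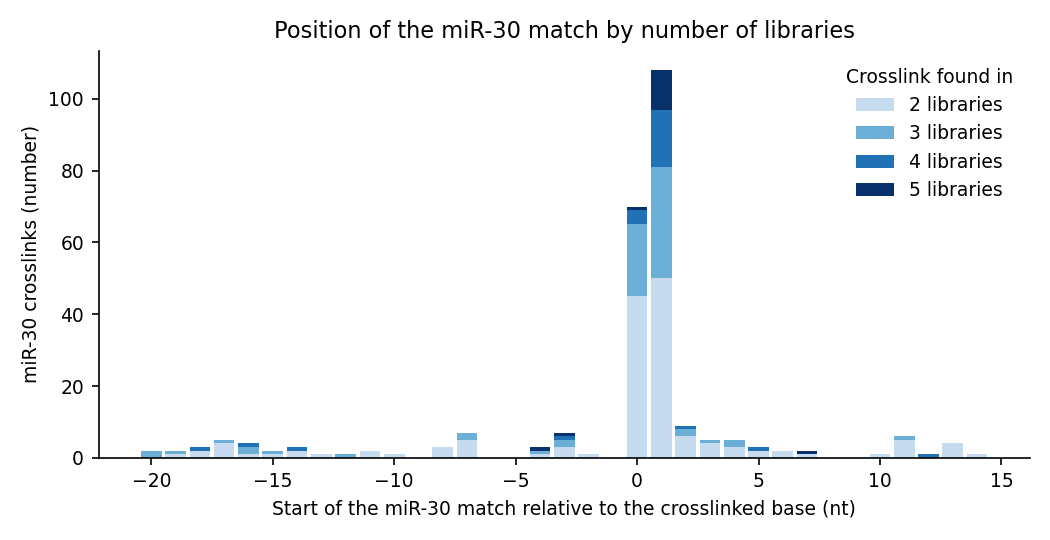
Number of miR-30 crosslinks (y axis) by the start of the match in nt relative to the linked base (x axis, 0 is the linked base, positive is downstream), split by the number of libraries that held the position. The bars at 0 and 1 nt hold 70 and 108 of the 264 positions.

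The same edge appeared when matches were counted far beyond the window. Per 10000 positions examined, TGTTTAC began 99.3 times 1 nt after an exonic crosslink and 63.7 times at it. It began 6.83 times per 10000 at 2 to 3 nt, 2.07 at 4 to 14 nt and 2.34 at 20 to 7 nt before the crosslink. More than 100 nt away, up to 200 nt, the rate was 1.26 before the crosslink and 1.65 after it. The excess over these distant rates was thus narrow, a few nt wide. Part of this shape is set by the letters. Every linked base with a full window reads T, so starts at -6, -5 and -1 nt cannot occur. A start at the linked base has its T given, which distant positions do not. Among all 7-letter words, TGTTTAC was 11th of 3852 found 1 nt after a crosslink, 23rd of 2315 found at it, and 18th of 16048 by the number of windows that held it. Words found at a crosslink all begin with T.

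**Figure D2:**
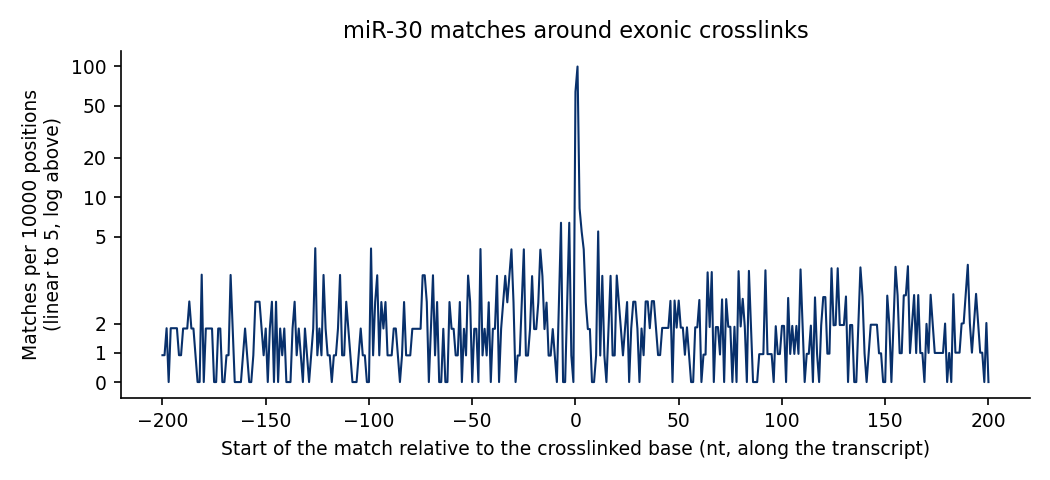
Rate of TGTTTAC starts per 10000 positions examined (y axis, linear up to 5 and logarithmic above) by distance in nt from all exonic crosslinks (x axis, positive is downstream). The 2 points at 0 and 1 nt stand at 63.7 and 99.3.

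Which of these 2 bases was listed as linked went with the letter before the match. The base not listed is not shown to be unlinked. A position linked 1 nt upstream has a T there by construction. Of the 114 matches preceded by T and linked at that T or at their own first T, 108 (94.7%, 88.9 to 98.0) were linked at the preceding T. Of the 70 positions linked at the first T of the match, 47 had A before the match, 11 had C, 6 had G and 6 had T. The match lay wholly downstream of the linked base at 147 positions and wholly upstream at 36, a share of 80.3% downstream (73.8 to 85.8; two-sided exact binomial test against equal sides, p = 4.05e-17). This asymmetry rested on the 1-nt class: without it 39 matches lay downstream and 36 upstream (52%; exact binomial test, p = 0.818).

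miR-30 crosslinks were held by more libraries than other exonic crosslinks. Of the 264, 152 were held by 2 libraries, 70 by 3, 27 by 4 and 15 by 5, against 7559, 1873, 801 and 452 of the 10685 other exonic positions. The share held by 3 or more libraries was 42.4% (36.4 to 48.6) for miR-30 crosslinks and 29.3% for the others, beside 29.6% of all exonic positions (odds ratio 1.78, 1.38 to 2.30; Fisher's exact test, two-sided, p = 7.96e-06). Within 3′ UTRs the shares were 44.0% (96 of 218) and 32.5% (2303 of 7082), beside 32.9% of all 3′ UTR positions (odds ratio 1.63, 1.23 to 2.16; Fisher's exact test, p = 5.49e-04). The difference lay mainly between 2 and 3 libraries. With 4 or more libraries as the threshold, the odds ratio over all exonic positions was 1.42 (Fisher's exact test, p = 0.0425). Within 3′ UTRs it was 1.36 (Fisher's exact test, p = 0.0913). Read the other way, a miR-30 match stood beside 1.97% of exonic positions held by 2 libraries, 3.6% of those held by 3, 3.26% of those held by 4 and 3.21% of those held by 5.

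**Figure D3:**
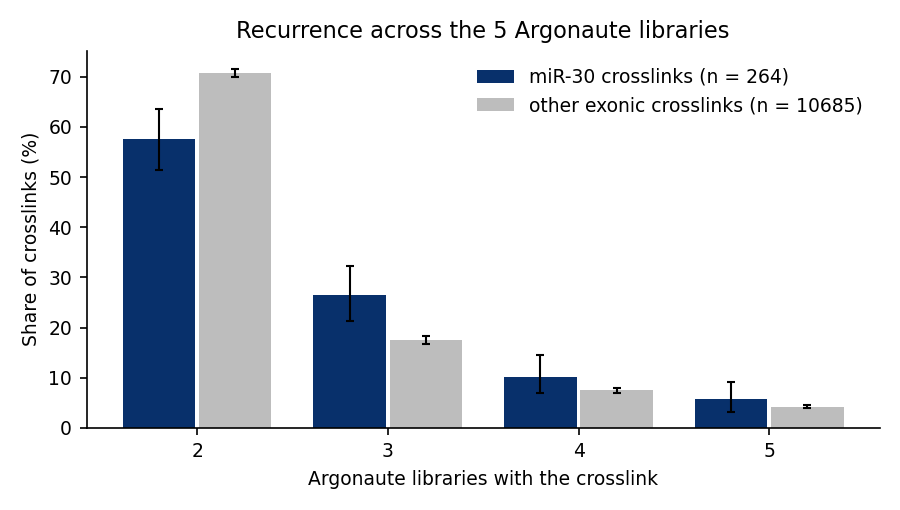
Share of positions in percent (y axis) held by 2, 3, 4 or 5 libraries (x axis) for miR-30 crosslinks and other exonic crosslinks, with exact 95% intervals. Of miR-30 crosslinks 57.6% were held by 2 libraries, against 70.7% of the others.

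Among miR-30 crosslinks, recurrence was higher for a match starting 1 nt after the linked base than for one starting at it, and no difference was seen by match type. The share in 3 or more libraries was 53.7% (58 of 108, 43.8 to 63.3) at 1 nt and 35.7% (25 of 70, 24.6 to 48.1) at 0 nt, a pair compared after the values were seen and not tested. Of positions with a match 0 to 3 nt downstream 45.3% (87 of 192) were held by 3 or more libraries, against 34.7% (25 of 72) of the rest (odds ratio 1.56, 0.859 to 2.86; Fisher's exact test, p = 0.127). With starts of 1 to 2 nt in place of 0 to 3, which leaves out the starts at 0, the counts were 61 of 117 and 51 of 147 (odds ratio 2.04; Fisher's exact test, p = 0.00574). Among 8mers alone the odds ratio for 0 to 3 nt was 2.51 (Fisher's exact test, p = 0.0552). An A opposite base 1 made 155 of the matches 8mers (58.7%), and after the other 109 stood T at 81, C at 17 and G at 11. Of the 8mers 43.2% were held by 3 or more libraries, against 41.3% of the other matches (odds ratio 1.08, 0.640 to 1.84; Fisher's exact test, p = 0.801). The interval leaves room for a difference in either direction.

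miR-30 crosslinks lay mostly in 3′ UTRs. There were 218 in 3′ UTRs (82.6%, 77.5 to 87.0), 35 in coding sequence (13.3%), 11 in noncoding exons (4.17%) and 0 in 5′ UTRs. Of the other exonic positions 66.3% lay in 3′ UTRs, 27.1% in coding sequence, 5.62% in noncoding exons and 0.992% in 5′ UTRs; over all exonic positions the 3′ UTR share was 66.7%. The 3′ UTR share was higher (odds ratio 2.41, 1.74 to 3.4; Fisher's exact test, two-sided and adjusted over 4 classes, q = 2.54e-08) and the coding share lower (odds ratio 0.411, 0.279 to 0.590; q = 2.04e-07). The differences in noncoding exons (q = 0.414) and 5′ UTRs (q = 0.25) did not pass. In the 3′ UTR the match began a median of 1018 nt after the stop codon (quartiles 362 and 1794), in UTRs of median length 2520 nt (quartiles 1616 and 3724).

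The 3′ UTR share was higher than for let-7 and miR-9 and was not seen to differ from that for miR-26. Crosslinks beside the matches of these 3 families were found by the same rule, leaving out windows that held both matches (0 with let-7, 3 with miR-9 and 9 with miR-26), and q-values are adjusted over 9 Fisher's exact tests. The 3′ UTR share was 82.6% for miR-30 and 57.0% for let-7 (odds ratio 3.56, 2.32 to 5.53; q = 2.33e-09), and 82.4% for miR-30 and 55.3% for miR-9 (odds ratio 3.77, 2.48 to 5.81; q = 3.27e-10). Against miR-26 it was 82.7% and 79.1% (odds ratio 1.27, 0.804 to 2.01; q = 0.482). The letters themselves were unevenly spread: in the genes with a crosslink, TGTTTAC occurred 1.42 times per 10 kb of 3′ UTR and 0.461 times per 10 kb of coding sequence. The density of the let-7 match was 0.676 in 3′ UTRs and 0.954 in coding sequence, that of miR-9 0.986 and 1.41, and that of miR-26 0.967 and 0.472. How often a match that was present had a crosslink was a different quantity: for TGTTTAC it was 14.7% in 3′ UTRs (212 of 1443) and 8.23% in coding sequence (34 of 413; odds ratio 1.92, 1.30 to 2.90; Fisher's exact test adjusted over 4 families, q = 5.16e-04). The odds ratio between the regions was 2.01 for let-7, 1.72 for miR-9 and 2.45 for miR-26. These densities were compared after the other results had been seen and leave out D10Wsu102e, whose annotated 3′ UTR is 122583 nt long.

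No difference in recurrence from the other 3 families passed, and of the 3 comparisons of the side of the match that with let-7 did. The share held by 3 or more libraries was 42.4% for miR-30 and 46.1% for let-7 (odds ratio 0.863, 0.595 to 1.25; q = 0.525), 42.5% and 41.9% against miR-9 (odds ratio 1.03, 0.711 to 1.48; q = 0.928), and 42.0% and 48.4% against miR-26 (odds ratio 0.772, 0.540 to 1.10; q = 0.267). Of matches wholly on 1 side, 80.3% lay downstream of the linked base for miR-30 and 89.9% for let-7 (odds ratio 0.461, 0.250 to 0.838; q = 0.0214), and the odds ratio was 0.644 with a 10-nt window (q = 0.564) and 0.155 among positions in 3 or more libraries (q = 0.00769). The same comparison gave 80.2% and 85.8% against miR-9 (odds ratio 0.673, 0.391 to 1.16; q = 0.267), and 81.7% and 84.8% against miR-26 (odds ratio 0.800, 0.459 to 1.40; q = 0.525). The starts were not tested between families. A start at the linked base itself was found for 26.5% of miR-30 positions and for 14.1% of miR-26 positions. It was found for 0 of 228 let-7 and 0 of 246 miR-9 positions, whose matches, CTACCTC and ACCAAAG, do not begin with T and so cannot be linked there. The side comparison leaves out matches that overlap the linked base, among them the 70 miR-30 starts at it. Its shares for miR-30 and let-7 therefore do not cover like sets of matches. How far the letters of the matches set the difference from let-7 was not tested. A start 1 nt after it was found for 40.9% of miR-30 positions, 68.0% of let-7, 65.4% of miR-9 and 60.6% of miR-26 positions.

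Most miR-30 matches in these UTRs had no crosslink in the table. The 3′ UTRs of genes with an exonic crosslink held 1461 matches in 1123 genes, and 214 of them (14.6%) lay within 20 nt of a crosslink. Of the 8mers 19.1% (131 of 687) were crosslinked, as were 10.7% (83 of 774) of the matches without the A. The 8mer share was thus 61.2% of crosslinked and 44.6% of other matches (odds ratio 1.96, 1.44 to 2.67; Fisher's exact test adjusted over 4 features, q = 1.57e-05). Crosslinked matches were also more often in A/U rich sequence: 71.0% of them and 50% of other matches had an A+T content of the 30 nt on either side at or above the median of all matches (odds ratio 2.45, 1.77 to 3.41; q = 3.56e-08). The median A+T content was 65.0% and 61.7%. A crosslink needs a U, and a T stood directly before 51.9% of crosslinked and 26.5% of other matches; the part of the assay in the flank result was not tested.

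**Figure D4:**
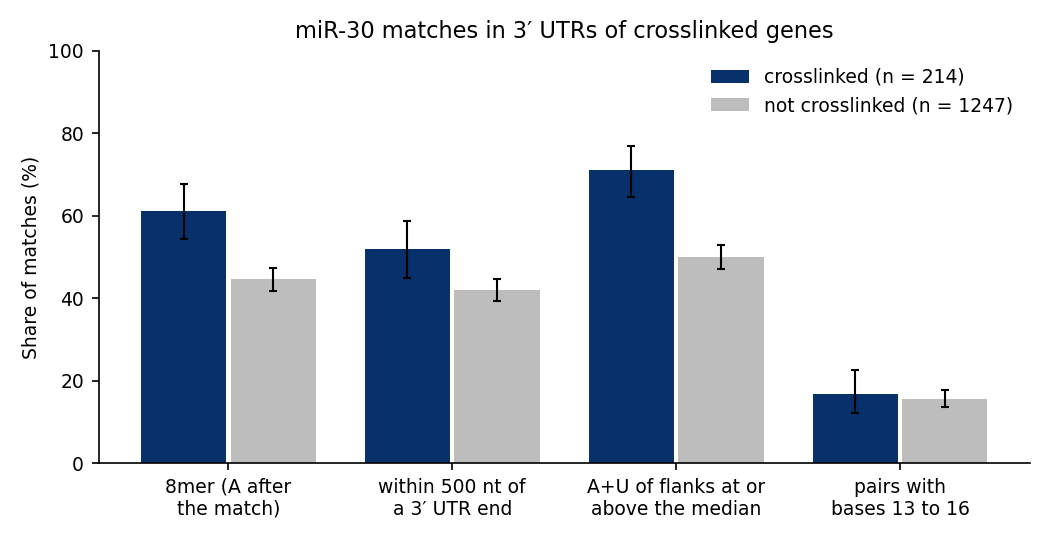
Share of 3′ UTR miR-30 matches in percent (y axis) with each of 4 features (x axis), for the 214 matches within 20 nt of a crosslink and the 1247 other matches in genes with an exonic crosslink, with exact 95% intervals. The gap is widest for A/U rich flanks (71.0% and 50%) and near 0 for 3′ pairing (16.8% and 15.6%).

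The difference in position in the UTR depended on the matches compared, and pairing beyond the seed was not seen to differ. Within 500 nt of either UTR end lay 51.9% of crosslinked and 41.9% of other matches (odds ratio 1.49, 1.10 to 2.02; q = 0.00962), but with a limit of 250 nt the odds ratio was 1.41 (q = 0.0519), and for crosslinks held by 3 or more libraries it was 1.24 (q = 0.438). Pooled over genes with a miR-30 crosslink in the 3′ UTR it was 2.79 (110 of 213 crosslinked and 24 of 87 other matches, q = 3.73e-04). Matches were not paired by gene, and UTR length was not adjusted for. A gene whose only match was crosslinked adds nothing to the other matches. Crosslinked matches stood in UTRs of median length 2526 nt and other matches in UTRs of 3447 nt, at medians of 1018 nt and 1521 nt after the stop codon. A complement to bases 13 to 16 of miR-30a, c or e stood within 20 nt upstream of 16.8% of crosslinked and 15.6% of other matches (odds ratio 1.10, 0.721 to 1.64; q = 0.613).

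The genes linked in 5 libraries had varied roles. Ncam1, which encodes the neural cell adhesion molecule, was linked at 2 matches, and Jak1 encodes a kinase of cytokine receptors. Gskip encodes an anchor protein that binds GSK3, and Ap1s2 a small subunit of the clathrin adaptor AP-1. RNA metabolism was represented by Papola, the poly(A) polymerase, and by Srsf7, a splicing factor. The Papola match began 1800 nt after the stop codon in a 1947-nt UTR, and the Srsf7 match 36 nt after its stop codon. Ubiquitin ligases or their adaptors were Rnf6, Sh3rf1 and Klhl28. Mgea5 encodes O-GlcNAcase, which removes N-acetylglucosamine from proteins, and its match began 614 nt after the stop codon. Rorb had 42 exonic crosslinks, of which 1 lay beside a miR-30 match; Gskip and Sh3rf1 had 1 each, and it was the miR-30 crosslink.

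Positions held by 4 libraries numbered 27, all 27 in 3′ UTRs, and in 16 of them the match began 1 nt after the linked base. They included 8mers in Aff4, a subunit of the super elongation complex, in Atp2b2, a plasma membrane calcium pump, and in Pip4k2b, a phosphoinositide kinase. Siah2, a ubiquitin ligase, and Josd1, a deubiquitinase, had 1 exonic crosslink each, beside a miR-30 8mer 712 nt and 1778 nt after the stop codon. In Xpr1, the phosphate exporter, the match began 274 nt after the stop codon in a UTR of 5309 nt. Ccdc71l was linked at the first base of its match, Nufip2 2 nt before its match, and Ccnjl and Kantr 1 nt before theirs.

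In most genes a single match was linked, which here means that it stood in the window of a crosslink. Of the 242 genes, 228 had 1 linked match, 13 had 2 and 1 (Gm49336) had 3. Of the 257 linked matches, 250 had 1 listed crosslink and 7 had 2. Ncam1 had a pair of 8mers 173 nt apart, held by 5 and 4 libraries. In Jak1 the matches were 38 nt apart, held by 5 and 2 libraries, and in Galnt7, an enzyme of mucin-type O-glycosylation, 34 nt apart, held by 2 libraries each. The Jak1 matches began 7 nt and 13 nt after their linked bases, and at the former a miR-17 match began 1 nt after the linked base. In Galnt7, 1 match was linked at its first base and the other began 17 nt before its linked base. Tnrc6a, the partner of Argonaute that silences bound messages, had matches 327 nt apart held by 3 and 2 libraries, and 2 further 8mers without a crosslink. Twf1, which encodes the actin-binding protein twinfilin, had 8mers 385 nt apart held by 3 and 2 libraries. Pairs stood 185 nt apart in Avl9, 568 nt in Ap1s2, 1048 nt in Jph4, 1918 nt in 1700020I14Rik, 3235 nt in Klhl28, 4204 nt in Cpsf6 and 6123 nt in Rora. In D10Wsu102e they stood 116878 nt apart, within an annotated UTR that held 18 matches. The sites of Tnrc6a, Twf1 and Galnt7 are printed because they show neighbouring matches in 1 UTR.
Tnrc6a (chr7:123193701-123193728, plus strand): gagaaaaaaaaTGTTTACtcttccatca
Tnrc6a (chr7:123193374-123193401, plus strand): tccagtgtagaTGTTTACtcaagggtgt
Twf1 (chr15:94578064-94578091, minus strand): gtataactcatTGTTTACactatgtttt
Twf1 (chr15:94578449-94578476, minus strand): tgtgttttgttTGTTTACaaatacgtag
Galnt7 (chr8:57525877-57525904, minus strand): taaactctagaTGTTTACatcgtttttt
Galnt7 (chr8:57525903-57525930, minus strand): gacTGTTTACaaaactgctcttacctta

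**Figure D5:**
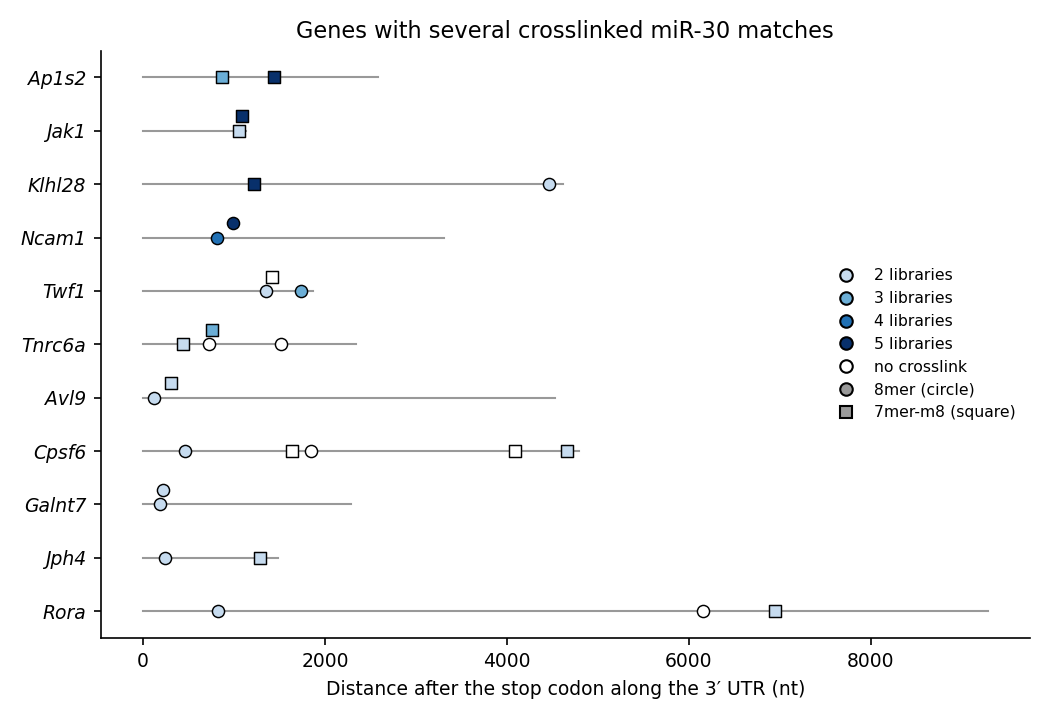
Positions of miR-30 matches in nt after the stop codon (x axis) in 11 genes with several crosslinked matches (rows), each line being the 3′ UTR; colour gives the number of libraries, open symbols have no crosslink, circles are 8mers and squares other matches. Symbols of close matches are set apart vertically, and D10Wsu102e, Gm49336 and 1700020I14Rik are not drawn. Both matches of Ncam1 were held by 4 or more libraries.

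The gene lists that follow are chosen sets and do not hold every gene of their kind. A gene counts wherever in the window its match lay, for example 14 nt before the linked base in Rbm25. It also counts where another family's match lay nearer the linked base. Genes outside a list are not in its count, among them Jak1, Sh3rf1, Siah2, Josd1, Slc5a3 and Rab23, which also had a miR-30 crosslink. Each list is read against all genes with an exonic crosslink, of which 5.57% had a miR-30 crosslink, and all exonic crosslinks, of which 2.41% were miR-30 crosslinks; no list was tested.

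Among listed genes reported as miR-30 targets in other tissues, 9 of the 34 with an exonic crosslink had a miR-30 crosslink (26.5%, against 5.57% of all genes with an exonic crosslink), and 12 of their 186 crosslinks (6.45%, against 2.41% of all). Socs3, an inhibitor of cytokine signalling, had an 8mer linked at positions held by 4 and by 3 libraries. Eed, a subunit of the Polycomb complex PRC2, and Ppp3r1, the regulatory subunit of calcineurin, each had an 8mer linked at its 5′ edge in 3 libraries. Galnt1 and Galnt7, both enzymes of mucin-type O-glycosylation, Ccne2, a cyclin of the entry into S phase, and the transcription factors Nfatc3 and Runx1 were each held by 2 libraries. Tnrc6a, which is also in the next list, had positions held by 3 and by 2 libraries. In Nfatc3 the match began 13 nt before the linked base, and a Galnt7 match began 17 nt before its own. Genes with longer 3′ UTRs or more RNA have more chances to be counted, and the list shares were not adjusted for either. How many of these genes were reported for a seed match, which the rule itself requires, was not examined. The shares are therefore not independent support for these targets.

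Of the listed Argonaute partners and microRNA processing genes, 3 of 22 with an exonic crosslink (13.6%) had a miR-30 crosslink. These were Tnrc6c, held by 4 libraries, Tnrc6a and the RNA helicase Ddx6, whose match lay 11 nt after a linked base in coding sequence. By crosslinks the list stood at 2.67%, near the 2.41% of all exonic positions.

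The listed chromatin regulators had a miR-30 crosslink in 9 of 45 genes (20%, against 5.57% of all) and at 3.83% of their crosslinks (against 2.41%). Chd1, a chromatin remodeller, and Setd5 were linked 1 nt before the match in positions held by 4 libraries. Kmt2c and Eed were linked in 3 libraries in the 3′ UTR and Ash1l, a histone methyltransferase, in 3 libraries in coding sequence. Arid1a, Kmt2e, Nsd3 and Phf6 were held by 2 libraries. The listed ubiquitin ligases and deubiquitinases had one in 7 of 46 genes (15.2%) and at 4.21% of crosslinks: Klhl28 and Rnf6 (5 libraries), Cblb and Rnf44 (3), and Kbtbd8, Rnf138 and Usp9x (2). At the Klhl28 position in 5 libraries the miR-30 match began 3 nt before the linked base and a miR-26 match 1 nt after it. In Rnf138 the miR-30 match began 16 nt before the linked base and a miR-17 match 2 nt after it. In the listed solute carriers the counts were 4 of 24 genes (16.7%) and 5.41% of crosslinks, each of Slc35f1, Slc38a2, Slc39a10 and Slc4a7 being held by 2 libraries.

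The listed retinal transcription factors stood near the share of all genes, and below that of all positions. Of 47 such genes, 3 had one (6.38%, against 5.57% of all), and 3 of their 288 crosslinks (1.04%) were miR-30 crosslinks, beside 2.41% of all exonic positions. They were Rorb, Nfib, a nuclear factor I family member held by 3 libraries with the match beginning 4 nt before the linked base, and Meis2, a homeobox gene held by 2. In the Notch pathway Maml1, a coactivator of Notch, was held by 3 libraries and Jag2, a ligand, by 2, of 16 listed genes (12.5%). Listed axon guidance genes had 1 of 21 (4.76%), the semaphorin receptor Plxnc1.

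The remaining lists, apart from the marker lists given near the start, stood between 4.55% and 10% by genes and between 1.27% and 3.45% by crosslinks. Listed RNA-binding proteins and splicing factors had a miR-30 crosslink in 6 of 60 genes and at 2.39% of crosslinks: Srsf7 (5 libraries), Rbm25 (4), Ddx5 (3), Celf4, Msi2 and Srsf1 (2). Listed cell cycle genes had one in 3 of 32 (9.38%), Mycn held by 4 libraries, Ccne2 and the mitotic kinase gene Cdk1 held by 2. The listed kinases had 3 of 50 (6%) and 1.27% of crosslinks: Csnk1a1 (4 libraries) and Csnk1g1 (3), both casein kinases, and Map3k2 (2). Listed small GTPases and trafficking genes had 3 of 45 (6.67%): the clathrin assembly gene Picalm (4 libraries), Rap2c and Rhob (2). Listed ion channels, receptors and synaptic adhesion genes had 1 of 22 (4.55%), Ncam1, and 3.45% of crosslinks.

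The 35 coding crosslinks were also concentrated at the 5′ edge of the match, and 9 of them (25.7%, 12.5 to 43.3) were held by 3 or more libraries, against 21.7% of other coding positions, with no test run. In 26 of 35 the match began 0 to 3 nt downstream (74.3%), against 158 of 218 (72.5%) in 3′ UTRs; no test was run. Rorb was held by 5 libraries, 8 others by 3 and 26 by 2.

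Of the 11 crosslinks in noncoding exons, 7 were held by 3 or more libraries (63.6%, 30.8 to 89.1), against 28.8% of other noncoding exon positions, with no test run; 3 of the 11 lie in 1700020I14Rik. Besides 1700020I14Rik and Gm49336 they included the nuclear RNAs Malat1 and Xist, each held by 3 libraries, and Mir124-2hg, a host transcript of miR-124, held by 2. No crosslink lay in the hairpins of Mir30a, Mir30c-1, Mir30c-2 or Mir30e.

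Matches of other microRNA families stood near some miR-30 crosslinks. Among 23 other families, a match stood in 39 of the 264 windows (14.8%), against 30.4% of other exonic windows. The miR-30 match takes up letters of its own window, mostly at 0 to 3 nt, so these shares are not comparable. Where the miR-30 match began outside 0 to 3 nt, another family's match began 0 to 3 nt downstream at 17 of 72 positions (23.6%, 14.4 to 35.1); this is near the 20.6% of other exonic positions. Where the miR-30 match began at 0 to 3 nt it was 0 of 192. A miR-30 match there takes up the letters that another match would need, so this count was set by the sequences. By libraries the 17 of 72 were 11 of 47 at 2, 2 of 16 at 3, 1 of 6 at 4 and 3 of 3 at 5. The last were Ap1s2, with miR-9 starting 1 nt downstream, Jak1, with miR-17, and Klhl28, with miR-26. In all 9 windows with both miR-30 and miR-26 the matches overlapped by 3 letters, and in 6 of them the miR-26 match began 1 nt after the linked base. Within 20 nt of a deposited miR-216 site lay 5 miR-30 crosslinks (1.89%, 0.618 to 4.36), in Rnf6, Rundc3b, Ythdf3 and Zranb1, against 2.94% of other exonic positions.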

How the data were processed

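PAR-CLIP was made from 7 libraries, 5 with an Argonaute antibody and 2 with IgG. STAR, CASAVA 1.8.2 and bedtools are listed, with the mm10 build, per the submitters' processing notes; their settings are not given there. The deposited score counts the samples with that crosslink, per the file headers. The table holds 0 per-library columns, so depth is unknown.

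Positions were placed on GENCODE release M21 (GRCm38) on the same strand, with 3′ UTR taking precedence over coding sequence, then 5′ UTR and last noncoding exon. Within a class the basic, non-readthrough and then longest transcript was used; the stop codon counted as coding, and transcripts annotated for nonsense-mediated decay as noncoding. Windows of 41 nt were read from spliced transcripts. The nearest match gave the offset. Pairing beyond the seed was read from miR-30a, c and e. Shares have exact 95% Clopper-Pearson intervals; tests are two-sided Fisher's exact or binomial tests at 0.05 with Benjamini-Hochberg adjustment (q). On simulated transcripts, planted match offsets, coordinates and the coding and 3′ UTR classes were recovered. The results of the tests were not checked that way. Python 3.11.15, scipy 1.17.1 and pandas 2.3.3 were used.

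Members and lists were chosen with earlier results of these data known. miR-9 took the place of miR-124 in the family comparison, a change made after the tests had been set. Genes named are those linked in 5 libraries; those with several linked matches; up to 5 members of each list; and 10 linked in 4 libraries beside an 8mer starting 0 to 3 nt downstream, by symbol. Others are named to complete small counts and were chosen after their values were seen. Alternatives changed the window, transcript, merging of close positions, recurrence threshold, match type, background and feature limits. Some items are not reported here.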

Additional observations from a re-analysis of the deposited data

How the results depend on the processing

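Of 92 alternative values over 20 results, 77 kept their direction and side of the threshold (counts within 1.5 times). The number of miR-30 crosslinks was 220 with a 10-nt window, 304 with a 30-nt window and 252 with close positions merged, but 155 for 8mers alone and 112 for positions in 3 or more libraries, since fewer positions are admitted. Recurrence within 3′ UTRs had an odds ratio of 1.36 at 4 or more libraries. The downstream share was 52% without the 1-nt class, an alternative chosen after seeing the data, as were those restricted to 3′ UTRs or without D10Wsu102e. Recurrence by offset became an odds ratio of 2.04 for starts of 1 to 2 nt. The odds ratio near UTR ends was 1.24 for crosslinks in 3 or more libraries and 1.41 with 250 nt. Pooled over genes with a miR-30 crosslink in the 3′ UTR, without pairing by gene, it was 2.79. The odds ratio of 3′ pairing turned to 0.804 for crosslinks in 3 or more libraries and to 0.976 pooled over those genes. Against let-7, the side of the match gave 0.644 with a 10-nt window (q = 0.564), and recurrence at 4 or more libraries among positions in 3 or more gave 1.1 (q = 0.778). Against miR-9, recurrence gave 0.837 with a 10-nt window (q = 0.564), 0.933 with close positions merged (q = 0.779) and 0.533 at 4 or more libraries (q = 0.0622). Against miR-26, the side gave 1.12 with a 10-nt window (q = 0.831). The causes were not tested.

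No paired analysis was possible because the table pools the libraries and carries no value of a single one; for the same reason no library was left out in turn. Read depth is unknown, so a match with no crosslink is not shown to be unbound, and the part of RNA abundance in recurrence was not tested. Without IgG values, no background was measured. A 7-nt match near a crosslink does not show which microRNA was bound.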
